A study of Mus musculus with 6 samples.

Results

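The 10 genes described here are Atf4 and 9 genes that work with or downstream of it: Atf3, Atf5, Ddit3, Ddit4, Trib3, Chac1, Sesn2, Nupr1 and Ppp1r15a. They were chosen by gene name as effectors and feedback genes of the ATF4 stress response, with the difference between treatments in these same libraries already known, and Nupr1 was included as a target that moves against the others. All 10 were found once each by name among the 54146 genes of the deposited table. Because the difference between treatments chose them, their own values are given as a description, and counts of members past a threshold are printed only beside the same share of all genes. Cells of the mouse mammary tumor line D2A1 were cultured in 3D in Matrigel in serum-containing medium, with 50 nM recombinant SLURP1 (rSLURP1), a secreted Ly6-family protein, or with 50 nM recombinant GST (rGST) as the control protein, in 3 libraries of each. The cells came from a single cell line, and no label says whether the 3 libraries of a treatment came from separate cultures, so errors measure the spread between these libraries, which may be technical. Bulk RNA was measured, so fewer cells with a transcript and less transcript per cell cannot be told apart.

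ATF4 is a basic leucine zipper transcription factor whose translation is favored when eIF2α is phosphorylated, a state known as the integrated stress response. It is triggered by amino acid shortage, unfolded proteins in the endoplasmic reticulum, heme shortage or double-stranded RNA, each through its own eIF2α kinase. ATF4 then raises transcription of genes for amino acid supply, of further transcription factors such as CHOP (Ddit3), and of feedback genes such as Trib3 and Ppp1r15a that restrain the response. RNA levels show the transcripts of these genes and not ATF4 protein, which upstream open reading frames in its transcript control.

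Expression is given as TPM, the share of transcripts that a gene holds after correction for transcript length, and differences as log2 fold changes of TPM + 1, rSLURP1 over rGST, with the standard error (SE) from limma, a linear model fitted to the 12301 genes that reached 1 TPM in 3 or more libraries. Adding 1 makes the differences of weakly expressed genes too small. The median log2 fold change of all tested genes was -0.33, and it was 0.0063 after median-ratio scaling, which divides each library by the median ratio of its genes. The depth of the libraries is unknown, since it cannot be read from TPM. Among cell type markers, the epithelial genes Epcam, Cdh1, Krt5, Krt14 and Krt19 stayed below 1 TPM in all 6 libraries. Krt8 was at 1.40 to 1.66 TPM with rGST and 0.51 to 0.81 with rSLURP1. Krt18 alone carried the epithelial sum, at 191.05 to 199.39 TPM. The mammary tumor origin was thus taken from the label, and these markers cannot show it. The summed level of 9 mesenchymal markers was 2255 to 2483 TPM with rGST and 726.0 to 779.1 with rSLURP1. Most of the rSLURP1 sum was Vim, at 640.3 to 698.5 TPM, against 1183.8 to 1340.3 with rGST. Dcn went from 519.7 to 635.6 TPM with rGST to 5.15 to 5.88 with rSLURP1. Lum went from 165.1 to 194.6 TPM to 0.58 to 1.09. The leukocyte sum was 3.58 to 4.08 TPM with rGST and 7.85 to 10.6 with rSLURP1, nearly all of it Cd68, and the adipocyte sum 0.23 to 1.64 and 1.15 to 1.74. Ptprc, Cd3e, Itgam, Pecam1 and Cdh5, which define leukocytes and endothelial cells, were at or near 0 in all libraries. The share of TPM from mitochondrially encoded genes was between 11.03% and 12.2% in the rGST libraries and between 12.5% and 14.3% in the rSLURP1 libraries. The part of these differences in the results was not tested.

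ATF4 binds, as a dimer with C/EBP family proteins, a composite element that joins a C/EBP and an ATF site. The promoter windows of RefSeq (GRCm38.p6, 250 bases before to 50 bases after each annotated start) were searched for it as TGATGNAA on both strands, with N for any base, and for the palindromic ATF/CRE element TGACGTCA, and the letters of these motifs do not overlap in any member. All 10 genes had a window. The composite element was present in 4 of the 10 genes, Atf3, Chac1, Nupr1 and Trib3, and in 4.51% of the 27025 genes with a window (3.97% of all 32851 windows). The ATF/CRE element was present in Ppp1r15a alone among the members, and in 2.03% of the genes (1.79% of windows). The other 5 members held neither set of letters in these windows. A match or its absence describes letters and not binding. The matches are shown 5′ to 3′ on the gene's strand, with the motif in capitals, because Nupr1 carries the same 8 letters as Chac1 and Atf3. The Chac1 stretch lies upstream of the gene at chr2:119351009-119351096, the Atf3 stretch in an intron of the longest Atf3 model at chr1:191183396-191183483, and the Ppp1r15a stretch just before its start at chr7:45526269-45526320. The Nupr1 stretch at chr7:126625562-126625591 and the Trib3 stretch at chr2:152344028-152344057 overlap annotated exons and are limited to 30 bases.
Chac1: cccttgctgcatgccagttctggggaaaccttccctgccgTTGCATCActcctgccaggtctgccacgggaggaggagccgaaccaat
Atf3: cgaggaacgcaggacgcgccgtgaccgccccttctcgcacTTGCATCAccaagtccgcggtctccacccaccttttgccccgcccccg
Nupr1: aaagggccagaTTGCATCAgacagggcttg
Trib3: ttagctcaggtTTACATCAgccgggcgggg
Ppp1r15a: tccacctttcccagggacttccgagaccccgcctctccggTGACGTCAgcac

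In Atf3 and in Nupr1 the composite element spans the same positions, -110 to -103 from the start, which is counted as 0. In Chac1 it lies farther upstream, at -193 to -186, and in Trib3 it lies after the RefSeq start, at 14 to 21. The Trib3 gene in the GENCODE M21 annotation starts farther downstream, at chr2:152344032, so by that annotation the element lies before the gene. All 4 read in the same orientation, the reverse complement of the motif as searched.

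**Figure D1:**
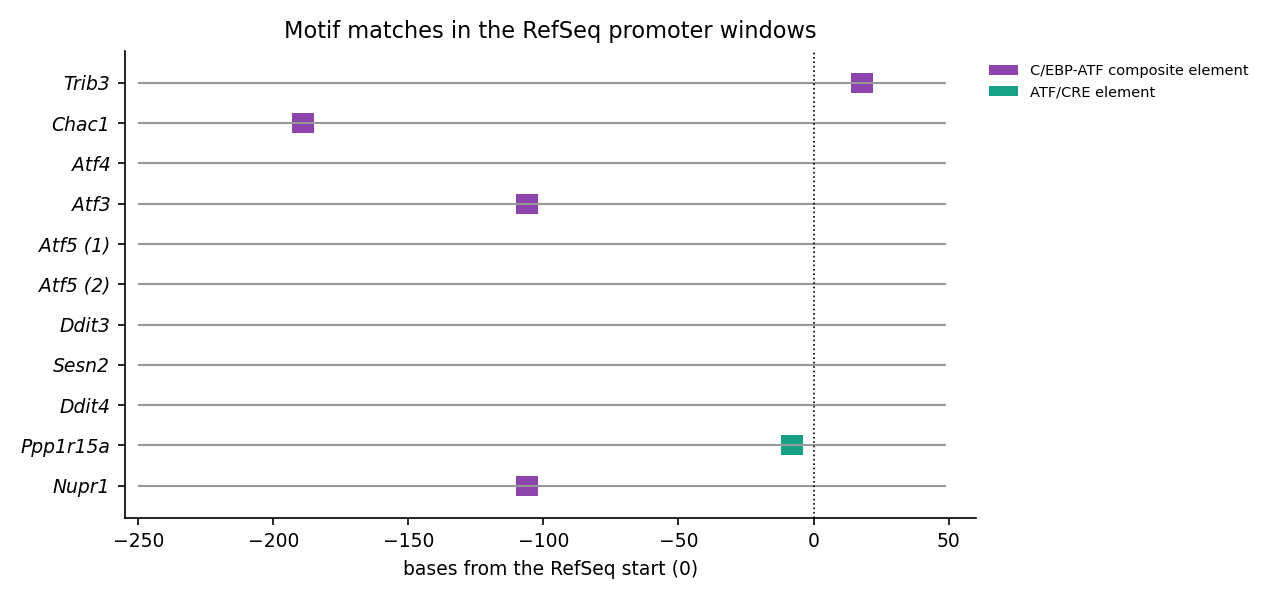
Motif matches in the 11 RefSeq promoter windows of the 10 genes (Atf5 has 2 windows), plotted in bases from the annotated start (0, dotted line), with genes ordered by log2 fold change. The composite element appears in Trib3, Chac1, Atf3 and Nupr1, the last being the gene with lower TPM under rSLURP1, and the ATF/CRE element in Ppp1r15a.

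Under rSLURP1, 9 of the 10 transcripts were higher and Nupr1 was lower. Summed over the 10 genes, TPM was 522.9 to 552.2 with rGST and 1011 to 1151 with rSLURP1. In limma at an adjusted p-value of 0.05, 9 members were called higher, where 8.66% of all tested genes were higher, and 1 was called lower, where 58.5% were lower. The libraries of the treatments did not overlap for any of the 10 genes. Over all tested genes, 9.75% had every rSLURP1 library above every rGST library and 61.7% had every one below. Since this contrast chose the members, nothing is read from these counts.

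The transcription factors come first. Atf4 (ENSMUSG00000042406.8, chr15:80255184-80257541, plus strand), the factor that drives the response, had TPM of 110.85, 114.68 and 122.04 in rGST replicates 1 to 3 and 370.19, 395.04 and 347.90 in rSLURP1 replicates 1 to 3. Every rSLURP1 library was at least 2.85 times the highest rGST library. The means were 115.9 ± 5.69 and 371.0 ± 23.6 TPM (SD, n = 3 each), and the log2 fold change was 1.67 (SE 0.058). Only 0.398% of the tested genes had a larger one. Atf4 was thus the most abundant of the 10 transcripts with rSLURP1, whereas with rGST it lay behind Nupr1.

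Atf5 (chr7:44812256-44816658, minus strand), the closest relative of Atf4 among the members and itself translated under stress, had 65.86, 58.21 and 66.61 TPM with rGST and 161.86, 171.17 and 171.45 with rSLURP1. The rSLURP1 libraries differed little among themselves, with a coefficient of variation of 3.25%. Its log2 fold change was 1.39 (SE 0.060). The Atf5 gene overlaps Nup62 on the opposite strand by 571 bases, and Nup62 had 31.4 to 37.8 TPM with rGST and 36.1 to 42.6 with rSLURP1. Whether the counting used strand is not given in the sources used here, so reads in that overlap could not be assigned with certainty.

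Atf3 (chr1:191170296-191218039, minus strand), a stress-induced factor that can repress its own and other stress genes, had 7.07, 9.36 and 6.84 TPM with rGST and 27.28, 31.79 and 19.53 with rSLURP1. It was the least even of the 10 transcripts, with a coefficient of variation of 17.96% with rGST and 23.7% with rSLURP1. Even so, the lowest rSLURP1 library was 2.09 times the highest rGST library. The log2 fold change was 1.62 (SE 0.184).

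Ddit3 (chr10:127290774-127296288, plus strand) encodes CHOP, the factor that links prolonged stress to cell death. Its TPM was 27.82, 26.19 and 30.09 with rGST and 69.29, 74.25 and 64.26 with rSLURP1, a log2 fold change of 1.27 (SE 0.073). A separate short entry of 105 bases, listed in the deposited table as RP24-341K21.15 and named Ddit3 in GENCODE M21 (chr10:127290829-127293753), lies within the first exons of Ddit3 on the same strand. This entry was listed at 0.79, 2.48 and 0 TPM with rGST and at 116.49, 13.72 and 0 with rSLURP1. Reads in the shared exons could have gone to either entry, so the Ddit3 level is uncertain, by less than the TPM of the short entry because TPM is divided by length and Ddit3 is the longer transcript. The Ddit3 values themselves stayed close to each other across the 3 rSLURP1 libraries, although the short entry did not.

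Nupr1 (chr7:126623249-126630861, minus strand), a small stress-induced chromatin protein that ATF4 is known to activate in other cells, went the opposite way. Its TPM was 141.36, 135.25 and 145.62 with rGST and 62.00, 67.43 and 57.61 with rSLURP1. The highest rSLURP1 library was below the lowest rGST library by a wide margin. The log2 fold change was -1.16 (SE 0.063), or -0.84 once the median of the tested genes was subtracted. It was -0.81 after median-ratio scaling and -0.82 after a correction for transcript length, so the direction held under each scaling run. By level Nupr1 moved from the first of the 10 transcripts with rGST to the sixth with rSLURP1, where its range overlapped that of Ddit3. Its promoter window holds the same composite element as Chac1 and Atf3 shown above, which describes letters and not binding.

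Among the effectors, Trib3 and Chac1 differed most. Trib3 (chr2:152337422-152344032, minus strand), a pseudokinase that binds and restrains ATF4 and CHOP, had 11.20, 12.77 and 11.60 TPM with rGST and 86.99, 95.46 and 77.22 with rSLURP1. The ratio of the means was 7.30, the log2 fold change was 2.76 (SE 0.088), and 0.114% of the tested genes had a larger one. Chac1 (chr2:119351229-119354381, plus strand), an enzyme that degrades glutathione, had 7.42, 7.52 and 8.27 TPM with rGST and 42.83, 43.33 and 36.08 with rSLURP1. Its log2 fold change was 2.25 (SE 0.088), with a ratio of the means of 5.27. Both genes were close to the bottom of the 10 by level with rGST, and with rSLURP1 Trib3 stood at place 4 and Chac1 at place 8.

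Sesn2 and Ddit4 both encode inhibitors of the growth kinase complex mTORC1, the former by sensing leucine and the latter through the TSC complex. Sesn2 (chr4:132492032-132510501, minus strand) had 11.65, 12.79 and 13.56 TPM with rGST and 26.08, 29.09 and 25.99 with rSLURP1, a log2 fold change of 1.04 (SE 0.079). Ddit4 (chr10:59949669-59951834, minus strand), also known as REDD1, had 116.27, 111.98 and 114.07 TPM with rGST and 174.72, 188.87 and 174.46 with rSLURP1. The Ddit4 libraries were the most even of all with rGST, with a coefficient of variation of 1.88%, and every rSLURP1 library lay above the highest of them. The log2 fold change of Ddit4 was 0.65 (SE 0.044), the smallest among the higher genes but for Ppp1r15a.

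Ppp1r15a (chr7:45522916-45526268, minus strand) encodes GADD34, the phosphatase subunit that removes the phosphate from eIF2α and so ends the response. Its TPM was 28.98, 34.15 and 33.47 with rGST and 45.77, 54.90 and 36.78 with rSLURP1. The lowest rSLURP1 library was only 1.08 times the highest rGST library, and the log2 fold change was 0.48 (SE 0.138). Without rGST replicate 1 the log2 fold change was 0.41, and 8 in place of 9 members were past the threshold. By the gap between the nearest libraries of the treatments, Ppp1r15a was the least separated of the 10 genes.

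**Figure D2:**
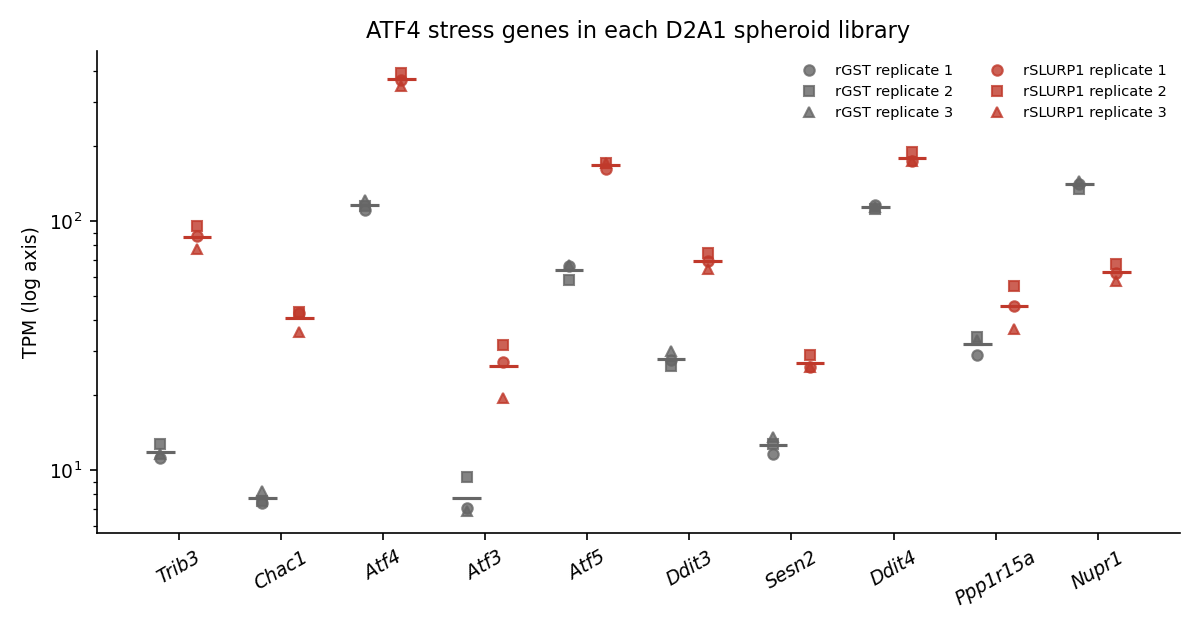
TPM (log axis) of the 10 genes in each library, with rGST in grey and rSLURP1 in red, a symbol per replicate and a line at each mean of 3 libraries. Each gene's groups are apart, by the least in Ppp1r15a, and Nupr1 is the gene whose rSLURP1 libraries lie below.

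The differences were compared across scalings because most genes were lower with rSLURP1 in TPM as deposited. At least 2-fold, 7 members were called higher and 1 lower, where 1.15% and 7.06% of all tested genes were. With median-ratio scaling, 9 members were again called higher and 1 lower, where 26.6% and 24.6% of the tested genes were. For the 9 higher members the log2 fold change ran from 0.48 to 2.76 with a median of 1.39 as deposited. Over all 14 fits, alternatives and omitted libraries included, Trib3 ranged from 2.69 to 3.11, Atf4 from 1.62 to 2.03, Ddit4 from 0.61 to 1.01 and Nupr1 from -1.22 to -0.81. The order of the 10 log2 fold changes, from Trib3 down to Nupr1, was the same with median-ratio scaling, and with the length correction Sesn2 (1.44) and Ddit3 (1.43) changed places.

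**Figure D3:**
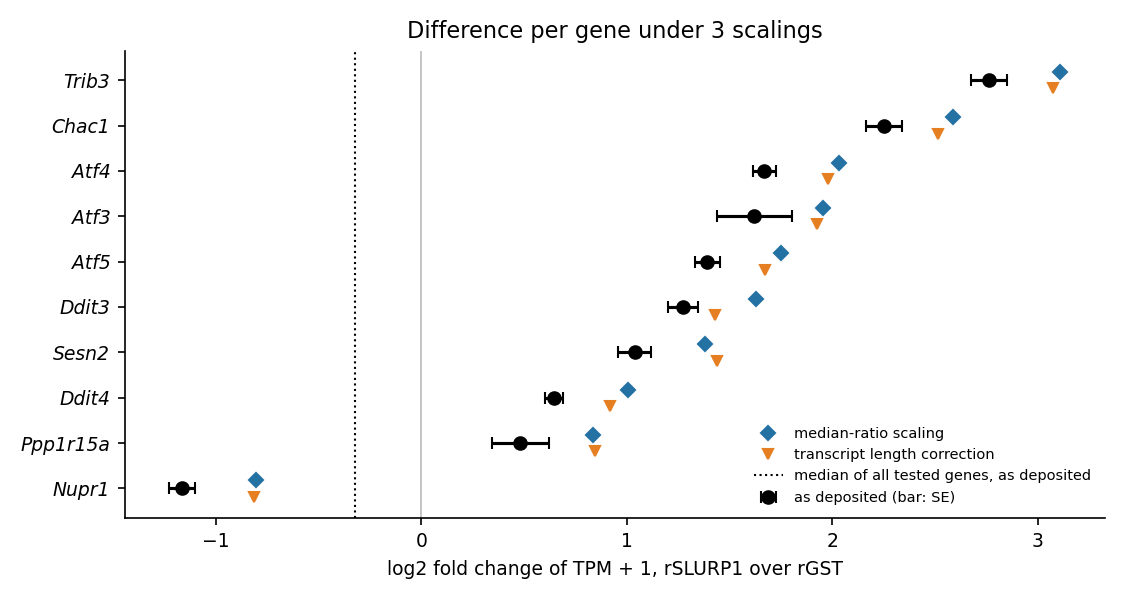
Log2 fold change of TPM + 1 (rSLURP1 over rGST) of the 10 genes as deposited (black, bars are SE from 3 libraries against 3), with median-ratio scaling (blue) and with a transcript length correction (orange). No gene changes sign, and the dotted line marks the median of all tested genes as deposited, -0.33.

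Levels within a library were then set against Atf4, since a ratio of genes in the same library does not depend on how that library was scaled. Trib3 stood at 0.102 ± 0.0082 of the Atf4 level with rGST and at 0.233 ± 0.0100 with rSLURP1 (SD, n = 3 each). Chac1 stood at 0.0668 ± 0.0011 and 0.110 ± 0.0060. These 2 genes were higher relative to Atf4 in every rSLURP1 library, whereas 6 genes were lower and Atf3 overlapped, at 0.0671 ± 0.0131 and 0.0701 ± 0.0126. The ratio to Atf4 was not counted over all genes. As 99.6% of the tested genes had a smaller log2 fold change than Atf4, a lower ratio is the common case. Nothing is read from these counts. Ddit4 stood at 0.987 ± 0.058 and 0.484 ± 0.016 of the Atf4 level, and Ddit3 at 0.242 ± 0.012 and 0.187 ± 0.0017. The largest shift was that of Nupr1, at 1.22 ± 0.052 of the Atf4 level with rGST and 0.168 ± 0.0026 with rSLURP1. Set against Ddit3 in place of Atf4, Trib3 stood at 0.425 ± 0.055 and 1.25 ± 0.043, and Chac1 at 0.276 ± 0.010 and 0.588 ± 0.029. Other pairs of members were not compared.

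**Figure D4:**
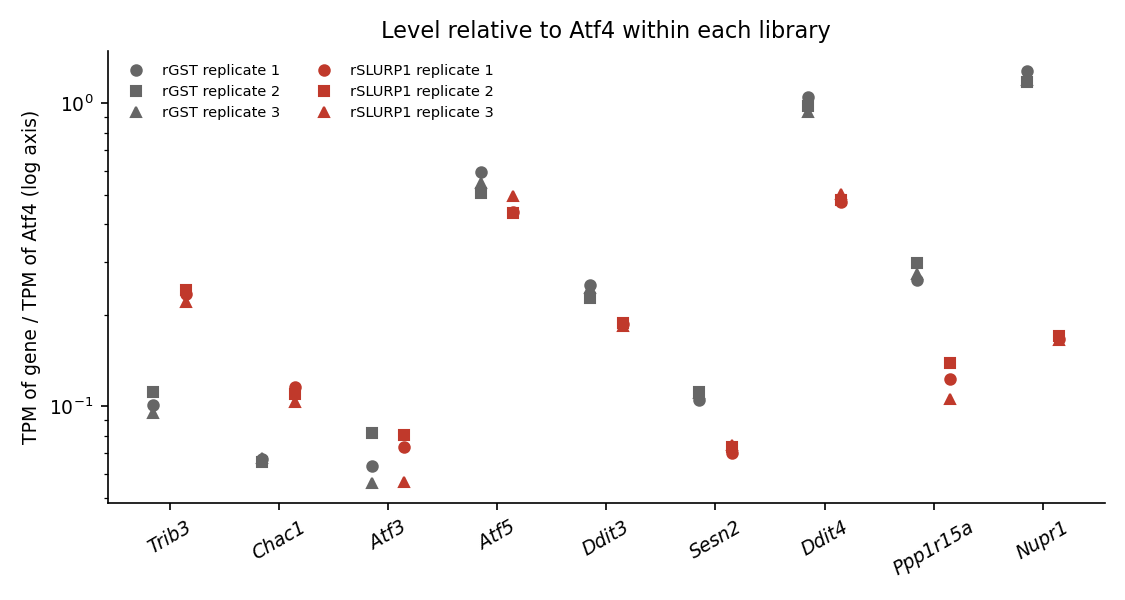
TPM of each gene divided by the TPM of Atf4 in the same library (log axis), rGST in grey and rSLURP1 in red, with a symbol per replicate. Trib3 and Chac1 lie higher with rSLURP1, Atf3 overlaps, and the other 6 genes lie lower, Nupr1 by the most (1.22 against 0.168 on average). Of all tested genes, 99.6% had a smaller log2 fold change than Atf4.

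By level, neighbors in the order could not always be separated. With rGST the ranges of Atf4 and Ddit4, of Ppp1r15a and Ddit3, of Sesn2 and Trib3, and of Atf3 and Chac1 overlapped. With rSLURP1 those of Ddit3 and Nupr1, of Ppp1r15a and Chac1, and of Sesn2 and Atf3 did. Within the rSLURP1 group, replicate 2 was the highest of the 3 libraries for 9 of the 10 genes, Nupr1 included, with Atf5 the exception. It was also the highest for 50.3% of all tested genes, with a median deviation of 0.038 (log2) from the group mean. After median-ratio scaling it was the highest for 8 of the 10, and the share of all tested genes was not computed for that scaling. With rGST no library was the highest for more than 6, a count reached by replicate 3, which was the highest for 34.8% of all tested genes.

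The other genes of the pathway were taken from lists set by gene function, with earlier results of these data known, so their counts are no independent evidence of direction. Each count as deposited stands beside the 8.66% of all tested genes that were called higher and the 58.5% called lower. Counts with median-ratio scaling stand beside 26.6% higher and 24.6% lower. Genes for amino acid supply, which ATF4 is known to activate, rose widely. Of 13 tested enzymes of amino acid and one-carbon synthesis, 12 rose and 0 fell, with a median log2 fold change of 1.13, and Mthfd1l did not pass the test. Asns, asparagine synthetase, rose from 30.9 to 147.4 TPM (log2 fold change 2.22, SE 0.056, adjusted p = 2.34e-07 in limma). Cth, which makes cysteine from cystathionine, rose most in this list (log2 fold change 2.99, SE 0.131, adjusted p = 2.46e-06). The serine pathway enzymes Phgdh, Psat1 and Psph rose by 1.13, 1.69 and 1.19, and the mitochondrial folate enzymes Mthfd2 and Aldh1l2 by 2.05 and 2.18 on the log2 scale.

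Of 9 tested amino acid transporters, 7 rose, with a median log2 fold change of 0.83. Slc7a11, the cystine importer, rose from 3.13 to 26.1 TPM (log2 fold change 2.71, SE 0.085, adjusted p = 5.60e-07 in limma), and Slc6a9, Slc7a1 and Slc7a5 rose by 1.34, 1.22 and 1.15. Slc38a7 was called lower as deposited, at -0.38, but was at -0.023 with median-ratio scaling and 0.016 with the length correction. Of 13 genes for tRNA charging and export, 12 rose, most of all Cars, cysteinyl-tRNA synthetase, at 1.34 (SE 0.069, adjusted p = 4.70e-06), and the nuclear exporter Xpot did not pass the test. The median of this list was 0.51.

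The remaining known targets were divided, and their balance depends on the scaling. Of 11 tested secreted and regulatory targets, 5 rose and 4 fell as deposited, with a median log2 fold change of 0.013 against -0.33 for all tested genes. With median-ratio scaling 6 were higher and 2 lower, with a median of 0.37, and with the length correction 7 and 2. Gdf15 was not tested because its TPM was too low. Stc2, a secreted stress glycoprotein, rose from 1.49 to 4.22 TPM (log2 fold change 1.08, adjusted p = 2.78e-04 in limma). Vegfa, the vascular growth factor, fell from 605.4 to 244.1 TPM (log2 fold change -1.31, adjusted p = 2.36e-06), and it stayed lower with median-ratio scaling, at -0.94. Klhl24 also fell (log2 fold change -0.91) and was at -0.56 with median-ratio scaling. Vegfa thus shared its direction with Nupr1 among the members, and with the 58.5% of all tested genes that were called lower as deposited.

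Upstream of ATF4, the list of eIF2α kinases and eIF2 machinery had a median close to that of all genes, but the kinases differed. Eif2ak1 and Eif2ak3 were at -0.41 and -0.21 on the log2 scale, near that median, and Eif2ak2 and Eif2ak4 were well below it. Of 14 genes for eIF2α kinases and eIF2 machinery, 1 rose and 9 fell, with a median of -0.29 against -0.33 for all tested genes. Eif2ak2 (PKR), the kinase that senses double-stranded RNA, fell from 44.7 to 18.95 TPM (log2 fold change -1.20, adjusted p = 7.38e-06 in limma). Eif2ak4 (GCN2), the amino acid sensor, fell from 33.9 to 16.5 TPM (log2 fold change -0.995, adjusted p = 1.03e-05), and was named after its values were seen. Eif2ak2 and Eif2ak4 stayed lower with median-ratio scaling, at -0.85 and -0.65. Eif2s2, the β subunit of eIF2, was the gene that rose, by 0.48. With median-ratio scaling this list had 5 genes higher and 3 lower, so its balance depends on the scaling.

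Of 8 tested relatives of the members, 1 rose and 3 fell as deposited, whereas median-ratio scaling gave 4 higher and 2 lower calls and the length correction 5 and 1, so the balance turns with the scaling. Jdp2, the closest relative of Atf3, rose by 0.57 (adjusted p = 8.01e-04 in limma), and Sesn3 fell from 11.7 to 6.31 TPM (log2 fold change -0.80, adjusted p = 8.75e-05) while Sesn2 was higher. Ppp1r15b, the constitutive counterpart of Ppp1r15a, had a log2 fold change of 0.13 (adjusted p = 0.0545) and did not pass the test. Nupr1l had 5.73 and 5.32 TPM on average, at -0.11 (adjusted p = 0.604). Among 6 tested partners that can dimerize with ATF4 or CHOP, 2 rose and 3 fell as deposited. Median-ratio scaling gave 3 higher and 2 lower calls and the length correction 3 and 1, so this balance also turns with the scaling. Nfe2l1 rose most, by 0.45. The C/EBP proteins of this list differed in direction. Cebpb rose from 386.0 to 512.1 TPM (log2 fold change 0.41, adjusted p = 2.68e-04 in limma), and was at 0.77 with median-ratio scaling. Cebpg, a C/EBP protein that pairs with ATF4, fell from 51.4 to 32.8 TPM (log2 fold change -0.63, adjusted p = 1.13e-04). Cebpg was at -0.28 with median-ratio scaling, and with the length correction it was at -0.19 and lost its call (adjusted p = 0.0518 in limma).

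Of 8 tested cell death and redox genes linked to CHOP, 2 rose and 3 fell. Tnfrsf10b, the death receptor known as DR5, rose from 5.46 to 8.80 TPM (log2 fold change 0.60, SE 0.086), and Bcl2, which protects from cell death, fell from 14.5 to 5.65 TPM (log2 fold change -1.22, adjusted p = 3.00e-05 in limma). With median-ratio scaling 4 were higher and 1 lower. Pmaip1 was listed at 0 in all libraries.

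The other branches of the unfolded protein response, which run through ATF6 and XBP1, differed less in size. Of 19 tested genes, 11 rose and 0 fell, with a median log2 fold change of 0.24, and all 19 were higher with median-ratio scaling. Manf, a secreted protein of the endoplasmic reticulum, rose most, from 223.2 to 392.3 TPM (log2 fold change 0.81, adjusted p = 2.83e-05 in limma). The chaperone Hspa5 (BiP) was at 0.11 (adjusted p = 0.0816).

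Several members also answer to other signals, so lists for these were set beside them. Of 8 tested hypoxia targets, 1 rose and 5 fell, Ankrd37 by most (log2 fold change -1.80) with Slc2a1 at 0.48 in the other direction. Of 8 tested p53 targets, 3 rose and 2 fell, with Cdkn1a (p21) at 1.19 and Ccng1 at -0.71. Of 6 tested glucocorticoid targets, 1 rose and 3 fell, with Tsc22d3 at 0.21 and Errfi1 at -2.68, from 227.2 to 34.7 TPM. The call of Tsc22d3 was lost in 8 of the 13 alternative fits, including those without each rGST replicate and without rSLURP1 replicate 2 or 3, where its log2 fold change ranged from 0.13 to 0.23. Of 6 tested heat shock genes, 3 rose and 1 fell, with Hspb1 at 0.81 and Dnajb1 at -0.39, and Dnajb1 was at -0.034 with median-ratio scaling. With median-ratio scaling, higher and lower calls numbered 4 and 4 for hypoxia, 5 and 1 for p53, 2 and 3 for glucocorticoid targets and 5 and 0 for heat shock. The medians of these lists as deposited ran from -0.43 for hypoxia to 0.12 for heat shock.

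**Figure D5:**
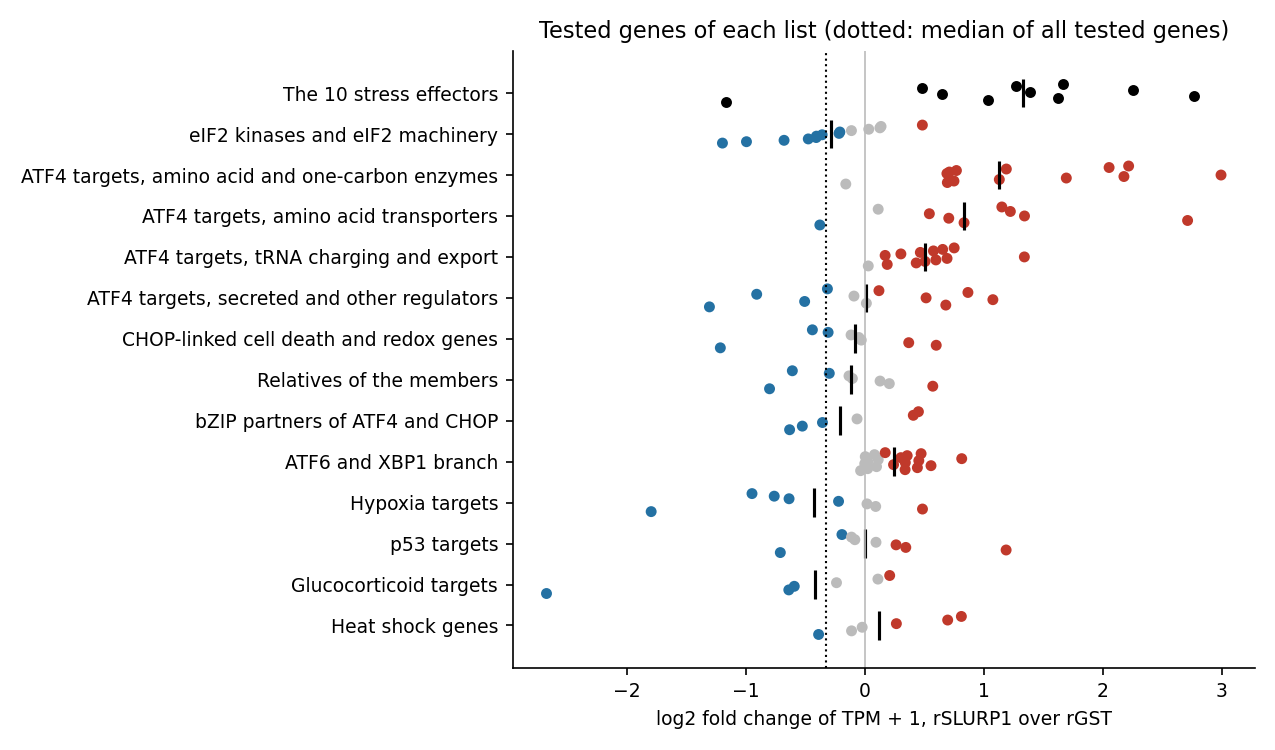
Log2 fold change of TPM + 1 (rSLURP1 over rGST) of the tested genes in each list, red where called higher, blue where called lower and grey where not called in limma at an adjusted p-value of 0.05, with the 10 stress effectors in black because they were chosen on this contrast. Black bars mark list medians, 1.13 for the amino acid and one-carbon enzymes and -0.29 for the eIF2 genes, and the dotted line the median of all tested genes, -0.33.

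Genes whose pattern over the 6 libraries was most like that of the members were ranked by Pearson correlation of log2(TPM + 1), among genes with a mean of at least 10 TPM. All 6 points share the split into treatments, so a high r mostly restates it. For the mean z-score of the 9 members other than Nupr1, the first 5 of 8405 genes were Dnajb9, Itpr3, Stom, Hmox1 and Plk3, with r from 0.9989 to 0.9998, and 436 genes reached an r of 0.95. Hmox1, heme oxygenase, had 75.6, 80.9 and 83.5 TPM with rGST and 194.1, 203.8 and 171.2 with rSLURP1. For Nupr1 the first 5 were Las1l, Ogdh, Colgalt1, Baz1b and Spag7, and 3238 genes of 8413 reached an r of 0.95. These counts follow the larger number of genes lower in TPM as deposited, and the 2 patterns were not compared.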

How the data were processed

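RNA from 6 libraries of D2A1 cells in 3D culture, 3 with rGST and 3 with rSLURP1, was sequenced by the authors. Per the submitters' processing notes, bcl2fastq 2.20, cutadapt 1.18, STAR 2.5.2b and RSEM 1.3.3 were used, and the deposited values are gene-level TPM, a length-corrected share of transcripts, which RSEM estimates by sharing reads between overlapping transcripts. The sources name more than one library kit, and strandedness is not given in the sources used here. TPM does not keep read depth, so no counting interval could be given. Treatments came from the sample labels. Of the 54146 gene identifiers, 52480 matched GENCODE M21 (GRCm38) with their version and 54079 without it, and promoter windows came from RefSeq GRCm38.p6.

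TPM was transformed to log2(TPM + 1), genes with at least 1 TPM in at least 3 libraries were kept, and limma 3.58.1 (R 4.3.3) was fitted with an intensity trend to all 12301 genes, with Benjamini-Hochberg adjustment and a threshold of 0.05. The fitting code was tested on simulated data. The members and gene lists were chosen with earlier results of these data known. Besides the members, the text names from each list the called genes with the largest rise and fall whose libraries do not overlap, called genes that changed at least 2-fold, and the 5 genes most like the members in pattern. Other genes are named as examples of a list, chosen after their values were seen. The alternatives tried were median-ratio scaling, fits that omit 1 library, a block for the replicate number, 0.1 as the pseudocount, testing genes without any filter or only those that passed it in all 6 libraries, and a fit without trend. A loess correction for transcript length (span 0.3) was added after seeing the data.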

Additional observations from a re-analysis of the deposited data

How the results depend on the processing

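All 10 members kept their direction in each of the 13 alternative fits, and Ppp1r15a was the member that lost its call, without a filter and without rGST replicate 1. Genes called over the whole table, 1065 higher and 7200 lower, numbered 3274 and 3029 with median-ratio scaling and 3349 and 2702 with the length correction, and 906 to 1020 and 6605 to 6999 with a library left out. With median-ratio scaling and with the length correction, respectively, higher calls numbered 5 and 5 for the eIF2 list, 4 and 5 for CHOP-linked genes, 4 and 5 for relatives, 19 and 19 for the ATF6 and XBP1 branch, 4 and 2 for hypoxia, 5 and 5 for p53, 2 and 2 for glucocorticoid targets and 5 and 5 for heat shock. Lower calls numbered 3 and 4 for the eIF2 list, 0 and 0 for transporters, 2 and 2 for secreted targets, 1 and 1 for CHOP-linked genes, 1 and 1 for p53 and 0 and 0 for heat shock, and with the length correction 1 each for relatives, bZIP partners and glucocorticoid targets. Lower p53 calls were also 1 without a filter, and higher glucocorticoid calls were 0 without a filter and 0 without a trend. With a library left out, higher calls ranged from 1 to 3 for the eIF2 list, 1 to 2 for relatives and 0 to 1 for glucocorticoid targets, and lower calls from 0 to 1 for amino acid enzymes and 1 to 2 for p53. Slc38a7 reversed to 0.016 with the length correction. The cause of these changes was not tested. No label says whether the replicate numbers pair the libraries. Deviations of same-numbered libraries correlated at -0.056, -0.034 and -0.061, which cannot decide it, because noise between libraries could hide a pairing. With the replicate block, 1008 genes were called higher and 6954 lower, 9 members were higher and 1 lower, lower p53 calls were 1 and higher glucocorticoid calls 0. Because depth is unknown, differences of genes near 1 TPM, such as Stc2, are the least certain.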
